A study of Mus musculus with 15 samples.

Results

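The tumour necrosis factor (TNF) superfamily was examined in 15 Illumina mouse bead arrays of cultured peritoneal macrophages. Members were taken by gene symbol: Tnf, every symbol that begins with Tnfsf or Tnfrsf, and Cd40, Fas, Fasl, Lta, Ltb, Ltbr, Cd27, Cd70 and Ngfr. The rule found 33 of the 13676 genes that had a named probe in the authors' value table, namely 11 ligands and 22 receptors, which are represented by 62 probes. Each gene was read from the probe that was brightest on average over all arrays, and for the members described in detail the other probes were set beside it. Fasl, Tnfrsf14, Tnfrsf18, Tnfrsf23, Tnfsf4, Tnfsf8, Tnfsf12, Tnfsf13 and Tnfsf15 belong to the superfamily as well, and are not analysed here.

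The macrophages were elicited in mice with 3% thioglycollate, an irritant broth, and kept after adhesion in medium with 0.5% serum and 5.5 mM glucose. Cells loaded with fatty acid and given LPS at 10 ng/ml for 24 h (FA+LPS) gave 4 arrays, cells given LPS alone gave 4, fatty acid-loaded cells given vehicle (FA) gave 4, and unloaded cells given vehicle (Unstim) gave 3. LPS, lipopolysaccharide from Gram-negative bacteria, is an agonist of Toll-like receptor 4. The arrays came from 4 independent experiments on 3 slides, replicate numbers are experiment numbers, and experiment 2 had no Unstim array here. The labels used here name neither the fatty acid nor the mouse strain, sex or age.

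TNF superfamily ligands are mostly trimeric proteins of the cell surface, some of which are shed as soluble cytokines, and they cluster receptors of the matching family on the same or another cell. Receptors with a death domain, such as TNFR1 and Fas, can assemble complexes that activate caspases, whereas others, such as TNFR2 and CD40, recruit TRAF adaptors that lead to NF-kappaB. Macrophages are a main source of TNF, and they carry CD40, through which T cells with CD40 ligand signal to them.

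Signals are given on a log2 scale after background correction and quantile normalization. A probe counted as above background on an array where it was brighter than 95% of the probes absent from the authors' value table, a level of 6.02 to 6.07 on the normalized scale. Of the 33 members, 14 were above background on all 15 arrays, 5 on 11 to 14 arrays and 14 on fewer than 10. A gene was tested if it was above background on at least 3 arrays, which 32 members were. Tnfrsf25, the death receptor DR3, was above background on 2 arrays and was not tested. A member passed the test where limma's p-value was below 0.05 after Benjamini-Hochberg adjustment across the 12961 genes tested. Other probes of a gene were tested in a fit over all probes, and their p-values are adjusted over those.

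The promoters of 4 members are shown because 3 of them, Ltb, Tnf and Lta, are neighbours with no other protein-coding gene between them on chromosome 17 in RefSeq and gave different values here, and because Tnfrsf9 was the member that passed a test among the 4 with a kappaB match. Each run holds the 250 bases before a RefSeq start site (build GRCm38.p6), 5′ to 3′ on the strand of the gene. Capitals mark matches to TATAAA in Tnf and Lta, and to the kappaB consensus, the motif bound by NF-kappaB, in Ltb and Tnfrsf9. The windows are Tnf at chr17:35202008-35202257 on the minus strand, Lta at chr17:35205352-35205601 on the minus strand, Ltb at chr17:35194257-35194506 on the plus strand, and the downstream start of Tnfrsf9 at chr4:150927749-150927998 on the plus strand.
Tnf: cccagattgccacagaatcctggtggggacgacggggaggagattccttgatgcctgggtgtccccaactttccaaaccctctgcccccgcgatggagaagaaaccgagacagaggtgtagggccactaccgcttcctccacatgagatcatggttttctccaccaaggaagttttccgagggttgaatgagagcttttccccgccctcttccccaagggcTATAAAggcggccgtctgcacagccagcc
Lta: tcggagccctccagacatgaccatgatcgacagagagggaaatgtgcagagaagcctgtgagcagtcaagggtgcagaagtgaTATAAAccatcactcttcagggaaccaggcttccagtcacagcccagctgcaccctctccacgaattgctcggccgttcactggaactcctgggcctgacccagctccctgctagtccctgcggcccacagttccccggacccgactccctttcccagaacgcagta
Ltb: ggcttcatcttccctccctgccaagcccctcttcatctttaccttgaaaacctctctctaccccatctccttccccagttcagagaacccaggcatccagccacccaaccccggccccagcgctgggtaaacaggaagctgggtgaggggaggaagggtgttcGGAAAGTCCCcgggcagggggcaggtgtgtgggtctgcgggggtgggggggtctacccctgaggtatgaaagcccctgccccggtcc
Tnfrsf9: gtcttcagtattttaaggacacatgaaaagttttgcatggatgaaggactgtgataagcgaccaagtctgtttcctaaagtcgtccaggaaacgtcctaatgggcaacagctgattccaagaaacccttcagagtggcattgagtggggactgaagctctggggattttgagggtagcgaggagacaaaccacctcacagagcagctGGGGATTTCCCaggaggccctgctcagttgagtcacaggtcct
RefSeq promoters were found for 26 of the 33 members, and both motifs were searched on both strands. TATAAA began 29 bases before the start of Tnf and 167 bases before that of Lta. The kappaB match of Ltb began 87 bases before its start, and the capitals of Tnfrsf9 hold 2 overlapping matches that began 43 and 42 bases before its downstream start. The window of the upstream Tnfrsf9 start held no kappaB match. Tnfrsf8, above background on 6 arrays, also held 2 overlapping matches, 168 and 167 bases before its start. The downstream window of Tnfrsf25 held 1, at 28 bases, and its upstream window held none. Of the 30 windows of members, 4 held a kappaB match (13.33%), against 7.25% of all 32851 windows, and 5 held TATAAA (16.67%), against 12.37% of all windows. No kappaB match lay in the Tnf window, which says only that these letters are not in these 250 bases.

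LPS was compared in fatty acid-loaded cells (FA+LPS against FA) and in unloaded cells (LPS against Unstim). In loaded cells, 12 of 32 members passed the test (37.5%), 9 of them higher and 3 lower with LPS, against 19.8% of all genes tested (8.4% higher and 11.4% lower). In unloaded cells, 13 of 32 members passed (40.6%), 9 higher and 4 lower, against 22.3% of all genes (8.99% higher and 13.3% lower). The median log2 difference of the members was 0.05 in loaded cells, against -0.01 over all genes, and 0.08 in unloaded cells, against -0.02 over all genes. The 2 comparisons share no arrays, but they share the fit's estimate of the spread and draw on the same experiments. LPS and FA+LPS arrays of an experiment deviated together from their group means (r = 0.805, 0.699, 0.560 and 0.708 in experiments 1 to 4). The 2 comparisons are thus not independent. Tnf, Tnfsf9, Cd40, Tnfrsf1b, Tnfrsf22, Fas, Tnfrsf26 and Tnfrsf9 were higher with LPS in both, and Tnfsfm13, Tnfrsf12a and Tnfrsf21 were lower in both. Groups with and without LPS did not overlap for 14 members in loaded cells, against 21.9% of all genes, and for 16 in unloaded cells, against 29.4%. The 11 genes called in both were 91.7% of the members called in loaded cells and 84.6% of those called in unloaded cells.

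**Figure D1:**
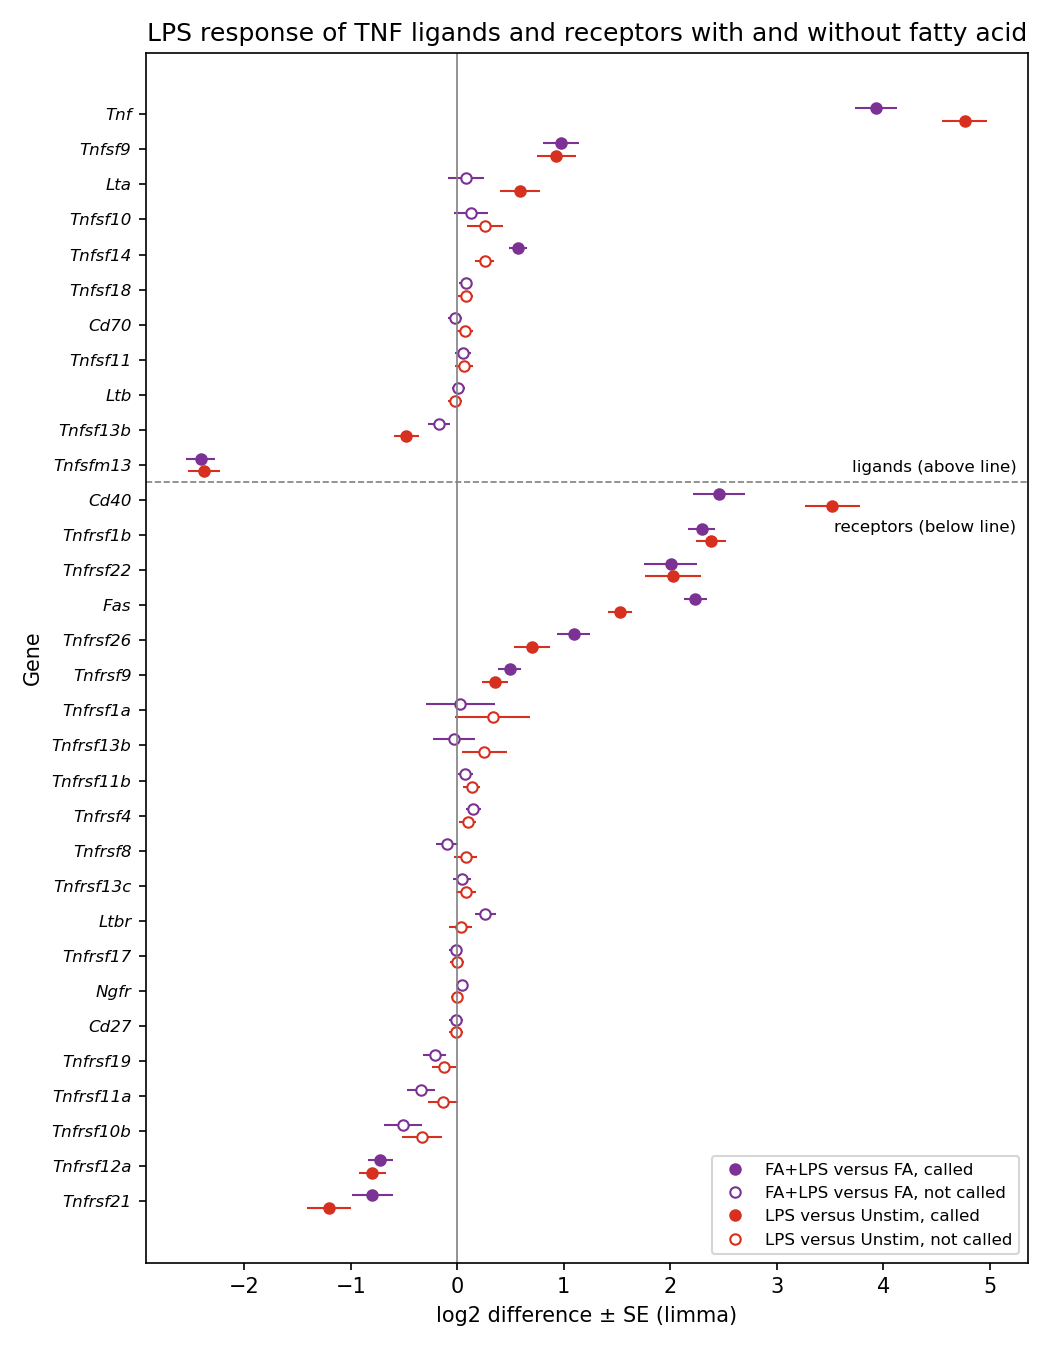
Log2 difference ± SE (x axis, limma) for the 32 members tested (rows), with FA+LPS against FA drawn above LPS against Unstim for each gene and filled points for members that passed the test. Tnf stands highest at 3.93 in loaded and 4.77 in unloaded cells, Tnfsfm13 lowest at -2.41 and -2.38, and most of the unfilled points lie near 0.

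Among the ligands, Tnf had the largest difference with LPS in both backgrounds. Its log2 signal was 11.44, 11.38, 11.20 and 10.70 in FA+LPS replicates 1 to 4 and 11.99, 11.90, 11.55 and 11.81 in the LPS replicates, against 7.21, 7.17, 7.77 and 6.84 in the FA replicates and 7.03, 7.33 and 6.78 in Unstim replicates 1, 3 and 4. All 8 arrays with LPS lay far above all 7 without it. The log2 difference was 3.93 ± 0.20 (SE) for FA+LPS against FA, a 15.3-fold change (limma adjusted p = 2.38e-09, n = 4 against 4). It was 4.77 ± 0.21 for LPS against Unstim, a 27.2-fold change (limma adjusted p = 1.04e-09, n = 4 against 3). A second Tnf probe gave 4.04 and 4.75 for the same comparisons.

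Lta, which encodes lymphotoxin alpha, a secreted ligand of the TNF receptors, stayed near background on most arrays. Its signal was 6.20, 6.00, 6.08 and 6.19 in FA+LPS and 7.20, 6.68, 6.12 and 6.35 in LPS, against 6.29, 5.94, 6.02 and 5.89 in FA and 6.04, 6.02 and 5.94 in Unstim. It was above background on 3 FA+LPS, 4 LPS, 1 FA and 1 Unstim arrays, and LPS replicate 1 was the highest of the 15. Lta was higher in LPS than in Unstim by 0.59 ± 0.19 (limma adjusted p = 0.0327), and a second probe gave 0.40 (adjusted p = 0.0101). Within slides the difference was 1.17 on slide 1 and 0.14 on slide 3, and without LPS replicate 1 it was 0.39 (adjusted p = 0.0481). It no longer passed when LPS replicate 2 was left out (adjusted p = 0.0726), when any 1 Unstim array was left out (0.0743 to 0.106) and where arrays were scaled by their medians instead of quantile normalized (median scaling, 0.0711). In loaded cells the difference was 0.08 ± 0.17 (adjusted p = 0.830).
Ltb, whose membrane-bound product pairs with lymphotoxin alpha, was above background on 2 arrays of each group and stayed close to that level: its signal lay between 5.97 and 6.10 in FA+LPS, 5.99 and 6.15 in LPS, 6.00 and 6.07 in FA, and 5.97 and 6.19 in Unstim. The 3 neighbouring genes thus ran from a large difference in Tnf, through a small one in Lta that depended on single arrays, to none that passed the test in Ltb.

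Tnfsf9, the costimulatory ligand CD137L, had 7.41, 6.79, 7.57 and 6.98 in FA+LPS and 7.23, 6.91, 7.61 and 7.09 in LPS. Its signal was 6.03, 6.27, 6.44 and 6.11 in FA and 6.30, 6.36 and 6.19 in Unstim. The groups with and without LPS did not overlap, and the difference was 0.97 ± 0.17 in loaded cells (limma adjusted p = 0.000661) and 0.93 ± 0.18 in unloaded cells (adjusted p = 0.00171). Its receptor gene Tnfrsf9, described below among the receptors, passed in the same direction.

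Tnfsf14, which encodes LIGHT, a ligand of the lymphotoxin beta receptor, was at 6.59, 6.49, 6.77 and 6.49 in FA+LPS and 6.08, 6.28, 6.27 and 6.37 in LPS. It was at 6.18, 6.03, 5.92 and 5.94 in FA and 5.91, 6.06 and 6.02 in Unstim. The 4 FA+LPS arrays were the 4 highest of the 15. In loaded cells Tnfsf14 rose by 0.57 ± 0.08 with LPS (limma adjusted p = 0.000148). In unloaded cells the difference was 0.26 ± 0.09 and did not pass (adjusted p = 0.0597), although it passed without FA replicate 1, LPS replicate 1 or FA+LPS replicate 3 (0.0427, 0.0234 and 0.0419). Of its other probes, one also passed in loaded cells, at 0.33 (adjusted p = 0.00886), and one did not, at 0.01. Tnfsf9, Cd70 and Tnfsf14 are adjacent protein-coding genes on chromosome 17, and Cd70, whose product binds CD27, was above background on 5 arrays and did not pass in any comparison.

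Tnfsfm13 fell most. This annotation is the readthrough of the neighbouring genes for TWEAK and APRIL, and it overlaps Tnfsf12 and Tnfsf13, so its probe may not tell the 3 transcripts apart. The signal was 9.04, 9.06, 8.76 and 8.56 in FA+LPS and 8.58, 8.93, 8.65 and 8.42 in LPS, against 11.23, 11.23, 11.19 and 11.40 in FA and 11.12, 11.23 and 10.72 in Unstim. No array with LPS came near one without it. The difference was -2.41 ± 0.14 in loaded cells (5.31-fold lower, limma adjusted p = 9.58e-09) and -2.38 ± 0.15 in unloaded cells (5.20-fold lower, adjusted p = 2.93e-08). The dimmer second probe fell by 0.41 in unloaded cells and passed as well.

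Tnfsf13b, which encodes BAFF, a survival factor for B cells, had 7.28, 6.95, 6.85 and 7.06 in FA+LPS and 6.71, 6.85, 6.53 and 6.78 in LPS. It had 7.13, 7.22, 7.05 and 7.42 in FA and 7.03, 7.26 and 7.30 in Unstim. The 4 LPS arrays lay below the 3 Unstim arrays, and the FA+LPS and FA arrays overlapped. LPS against Unstim gave -0.48 ± 0.12 (limma adjusted p = 0.00707), and FA+LPS against FA gave -0.17 ± 0.11 (adjusted p = 0.336). The first call was lost with median scaling (-0.40, adjusted p = 0.497), and the other 2 probes of the gene gave -0.23 and 0.01 and did not pass.

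**Figure D2:**
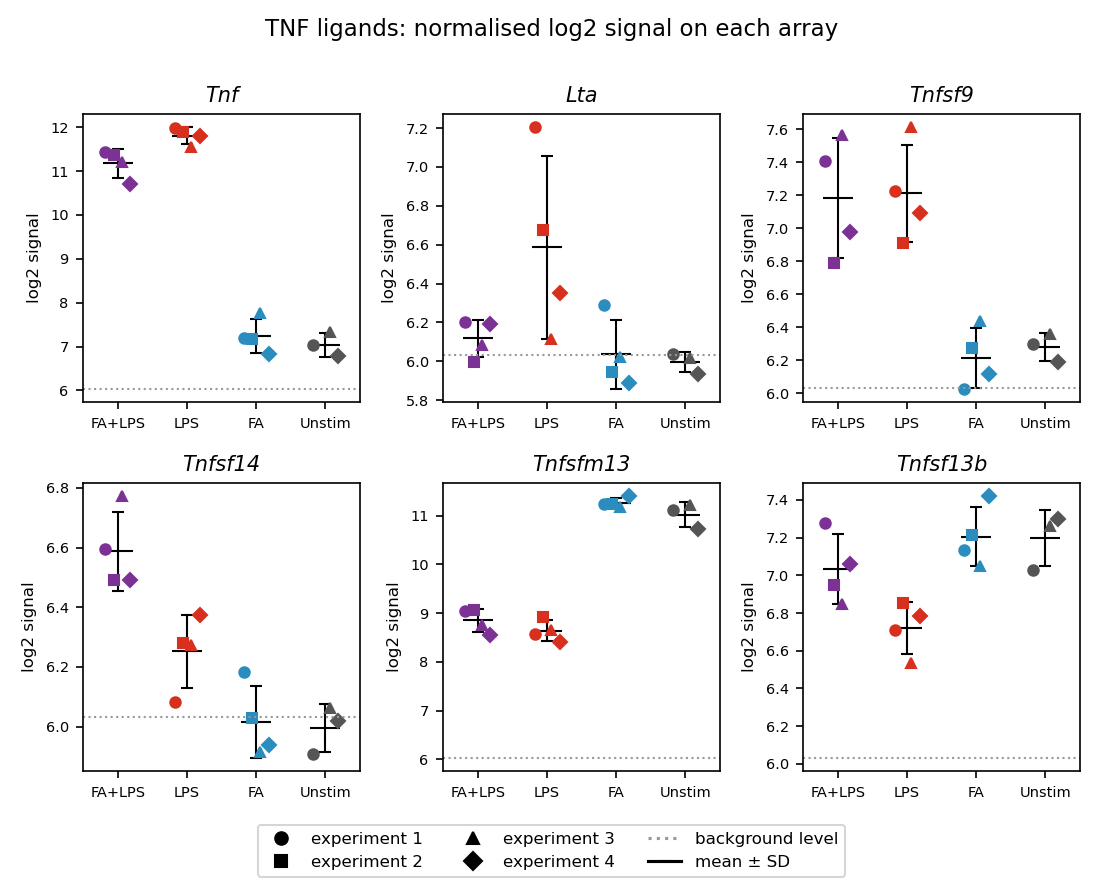
Normalized log2 signal (y axis, scaled separately for each gene) of the ligands Tnf, Lta, Tnfsf9, Tnfsf14, Tnfsfm13 and Tnfsf13b on each array, with FA+LPS, LPS, FA and Unstim from left to right, symbols for the experiment, bars for the mean ± SD and a dotted line at the background level. Tnf and Tnfsfm13 part the 8 LPS-treated arrays and the 7 others, Tnfsf14 is highest on the 4 FA+LPS arrays, and Lta is near the dotted line outside the LPS group.

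The remaining ligands were dim. Tnfsf10 (TRAIL) was above background on 6 arrays and reached 6.96 on LPS replicate 4, against 6.15, 5.97 and 6.18 on the other LPS arrays. Tnfsf11 (RANKL, the osteoclast differentiation ligand) was above background on 6 arrays and Tnfsf18 (the GITR ligand) on 3. None of the 3 passed in any comparison. These probes were not well above background, so a fall in their transcripts was not measurable here, and no rise passed the test.

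Of the receptors, 21 were tested. In loaded cells 6 were higher and 2 lower with LPS, and the same counts, 6 higher and 2 lower, were found in unloaded cells. Over all genes the shares were 8.4% higher and 11.4% lower in loaded cells, and 8.99% and 13.3% in unloaded cells.

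The receptors of TNF itself differed from each other. Tnfrsf1b encodes TNFR2, which lacks a death domain. Its signal was 10.72, 10.38, 10.27 and 10.54 in FA+LPS and 10.95, 10.58, 10.30 and 10.63 in LPS, against 8.32, 8.28, 8.12 and 8.02 in FA and 8.11, 8.41 and 8.19 in Unstim. Every array with LPS was above every array without it. The difference was 2.29 ± 0.13 in loaded cells (4.90-fold, limma adjusted p = 9.58e-09) and 2.38 ± 0.14 in unloaded cells (5.20-fold, adjusted p = 1.86e-08). Its other 2 probes passed too in unloaded cells, at 1.91 and 1.32, and in loaded cells 1 of them passed, at 1.47, and 1 did not, at 1.12 (adjusted p = 0.0640).

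Tnfrsf1a encodes TNFR1, the death domain receptor through which soluble TNF mainly signals. Its signal was 7.96, 7.24, 7.86 and 6.85 in FA+LPS and 8.74, 7.51, 8.11 and 7.04 in LPS, against 7.73, 7.25, 7.85 and 6.97 in FA and 7.54, 7.47 and 7.55 in Unstim. Replicate 4 was the lowest and replicates 1 and 3 the highest in each of the first 3 groups, so the spread between experiments was wide, and all groups overlapped. The difference was 0.03 ± 0.33 in loaded cells (limma adjusted p = 0.972) and 0.33 ± 0.35 in unloaded cells (adjusted p = 0.628). The value in unloaded cells depended on the arrays and the fit. Leaving out 1 array gave 0.04 to 0.60, slide as a block 0.74 (adjusted p = 0.0569) and the experiment as a block 0.42 (adjusted p = 0.210). Within experiments 1, 3 and 4 it was 1.20, 0.65 and -0.51, so experiment 4 went the other way. Within slides 1 and 3 it was 1.20 and 0.61, without LPS replicates 2 and 4, whose slide held no Unstim array. The other 2 probes gave 0.19 and 0.31 in unloaded cells and did not pass. With this spread neither comparison could resolve a change as small as that of Tnfrsf9.

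Fas, the death receptor bound by Fas ligand, was at 9.21, 9.21, 8.97 and 8.76 in FA+LPS and 8.37, 8.31, 8.38 and 8.64 in LPS. It was at 6.67, 6.82, 6.84 and 6.89 in FA and 7.06, 6.83 and 6.81 in Unstim. Fas ordered the arrays into 3 levels, with FA+LPS above LPS and LPS above both groups without it. The difference was 2.24 ± 0.10 for FA+LPS against FA (4.71-fold, limma adjusted p = 1.42e-09) and 1.53 ± 0.11 for LPS against Unstim (2.88-fold, adjusted p = 1.70e-07). Of its other 3 probes, 2 passed in unloaded cells at 0.96 and 0.44 and the third did not, at -0.06.

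Cd40, the costimulatory receptor for CD40 ligand, had 9.07, 8.56, 9.24 and 9.87 in FA+LPS and 10.16, 9.79, 10.39 and 10.90 in LPS. It had 6.55, 6.65, 6.89 and 6.83 in FA and 6.82, 6.76 and 6.79 in Unstim. The difference was 2.46 ± 0.24 in loaded cells (5.49-fold, limma adjusted p = 2.77e-06) and 3.52 ± 0.26 in unloaded cells (11.5-fold, adjusted p = 1.60e-07). All 3 other Cd40 probes passed in unloaded cells, at 3.89, 1.96 and 0.50. In loaded cells the first and the second passed, at 2.47 and 1.20, and the third did not, at 0.16 (adjusted p = 0.337).

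Tnfrsf22 and Tnfrsf26 are neighbours on chromosome 7 with no other protein-coding gene between them, and in the mouse Tnfrsf22 encodes a decoy receptor for TRAIL. Tnfrsf22 was at 9.84, 8.83, 9.49 and 8.89 in FA+LPS and 10.09, 9.01, 9.20 and 9.05 in LPS, against 7.22, 7.17, 7.56 and 7.11 in FA and 7.13, 7.47 and 7.33 in Unstim. It rose by 2.00 ± 0.25 in loaded cells (limma adjusted p = 2.62e-05) and by 2.03 ± 0.27 in unloaded cells (adjusted p = 4.84e-05). Its paralog Tnfrsf23 is a close copy, so signal from the pair may not be separable. In unloaded cells the other probes of Tnfrsf22 gave 0.72, which passed, and 0.11 and 0.25, which did not.
Tnfrsf26 was at 7.14, 7.59, 7.21 and 7.80 in FA+LPS and 7.01, 7.16, 7.38 and 7.59 in LPS, against 6.04, 6.52, 6.26 and 6.56 in FA and 6.62, 6.54 and 6.60 in Unstim. Its difference was 1.09 ± 0.16 in loaded cells (limma adjusted p = 0.000126) and 0.70 ± 0.17 in unloaded cells (adjusted p = 0.00767; 0.0720 with median scaling). Both neighbours were thus higher with LPS in both backgrounds.

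Tnfrsf9, the CD137 receptor known as a T cell costimulator, had 6.58, 6.16, 6.50 and 6.87 in FA+LPS and 6.41, 6.39, 6.38 and 6.38 in LPS. It had 6.16, 6.05, 6.03 and 5.91 in FA and 6.06, 6.11 and 5.94 in Unstim, and was above background on 2 arrays of each of these groups. The difference was 0.49 ± 0.11 in loaded cells (limma adjusted p = 0.00467). In unloaded cells it was 0.35 ± 0.12 with an adjusted p of 0.0478, and that call was lost with slide as a block (0.0917), with median scaling (0.171) and in 13 of the 15 fits that left out 1 array (up to 0.175). A second probe also gave 0.35 (adjusted p = 0.00566).

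The receptors that fell were Tnfrsf21 and Tnfrsf12a. Tnfrsf21, the death domain receptor DR6, had 8.57, 8.15, 7.82 and 7.61 in FA+LPS and 8.08, 7.84, 7.40 and 7.22 in LPS. Its signal was 8.86, 8.77, 8.87 and 8.83 in FA and 8.86, 8.86 and 8.80 in Unstim, so the arrays without LPS were close together and those with it were spread. The difference was -0.80 ± 0.19 in loaded cells (limma adjusted p = 0.00717) and -1.21 ± 0.21 in unloaded cells (adjusted p = 0.000510).
Tnfrsf12a, which encodes Fn14, the receptor for TWEAK, had 7.78, 8.12, 8.34 and 8.06 in FA+LPS and 7.97, 8.18, 7.96 and 8.08 in LPS, against 8.69, 8.87, 8.77 and 8.85 in FA and 9.12, 8.68 and 8.74 in Unstim. It fell by 0.72 ± 0.12 in loaded cells (limma adjusted p = 0.000299) and by 0.80 ± 0.12 in unloaded cells (adjusted p = 0.000231). With median scaling both receptors remained lower in direction and lost all 4 calls, with values in loaded cells of -0.39 for Tnfrsf21 (adjusted p = 0.634) and -0.35 for Tnfrsf12a (0.572), and in unloaded cells of -1.05 (0.149) and -0.60 (0.337). A second Tnfrsf21 probe gave -0.44 in unloaded cells and did not pass (0.146).

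**Figure D3:**
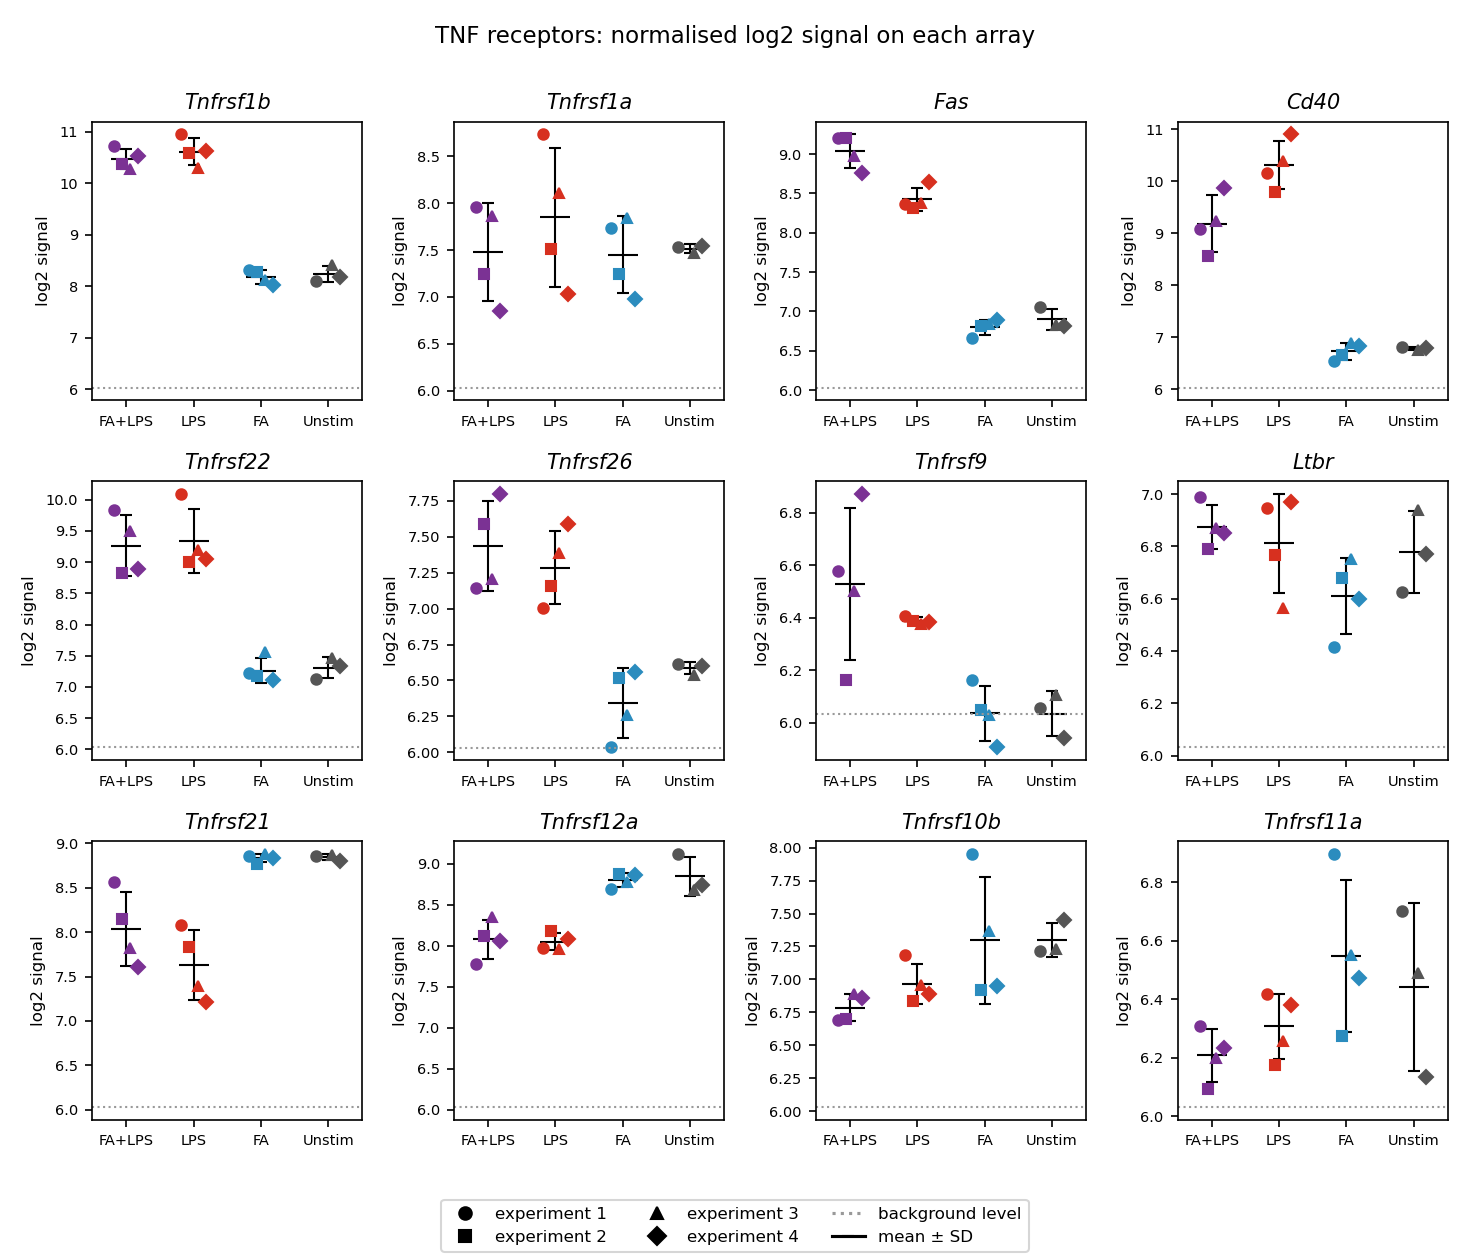
Normalized log2 signal (y axis, scaled separately for each gene) of 12 receptors on each array, with FA+LPS, LPS, FA and Unstim from left to right, symbols for the experiment, bars for the mean ± SD and a dotted line at the background level. Tnfrsf1b, Fas, Cd40 and Tnfrsf22 are above every array without LPS on all 8 arrays with it, Tnfrsf21 and Tnfrsf12a are below, and the Tnfrsf1a groups overlap.

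Tnfrsf10b, the TRAIL death receptor, had 6.70, 6.70, 6.89 and 6.86 in FA+LPS and 7.18, 6.84, 6.96 and 6.89 in LPS, against 7.95, 6.92, 7.37 and 6.95 in FA and 7.22, 7.23 and 7.45 in Unstim. The difference in loaded cells was -0.51 ± 0.18 and did not pass (limma adjusted p = 0.0555), whereas with the experiment as a block it passed (adjusted p = 0.0313). A second Tnfrsf10b probe, above background on 7 arrays, had the other sign and did not pass, at 0.16 in loaded cells (adjusted p = 0.162) and 0.01 in unloaded cells. Tnfrsf11a, which encodes RANK, the receptor on osteoclast precursors, had 6.31, 6.09, 6.20 and 6.24 in FA+LPS and 6.42, 6.17, 6.26 and 6.38 in LPS. It had 6.90, 6.27, 6.55 and 6.47 in FA and 6.70, 6.49 and 6.14 in Unstim. In loaded cells the difference was -0.34 ± 0.13 (adjusted p = 0.0864), and it passed without FA replicate 2 (0.0336) and when the experiment was a block (adjusted p = 0.0133). It did not pass with slide as a block (-0.28, adjusted p = 0.108) or with median scaling (-0.21, 0.410), and leaving out 1 array gave -0.43 to -0.22 (adjusted p up to 0.256). FA replicate 1 was the highest array for both genes.

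Ltbr, the lymphotoxin beta receptor, had 6.99, 6.79, 6.87 and 6.85 in FA+LPS and 6.95, 6.77, 6.56 and 6.97 in LPS, against 6.41, 6.68, 6.75 and 6.60 in FA and 6.63, 6.94 and 6.77 in Unstim. The difference was 0.26 ± 0.10 in loaded cells (limma adjusted p = 0.0868) and 0.03 ± 0.11 in unloaded cells (adjusted p = 0.902). Tnfrsf13b (TACI, a receptor of BAFF and APRIL) and Tnfrsf4 (OX40, a T cell costimulator) also did not pass.

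The other receptors were dim: Cd27, Ngfr, Tnfrsf8 (CD30), Tnfrsf11b (osteoprotegerin, the soluble decoy for RANKL), Tnfrsf13c (the BAFF receptor), Tnfrsf17 (BCMA) and Tnfrsf19 were above background on 3 to 8 arrays. None passed in any comparison. Over all dim members other than Lta the signal ran between 5.76 and 6.96.

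Fatty acid was compared without LPS (FA against Unstim) and with it (FA+LPS against LPS). Without LPS, limma called 0 of 32 members, against 0.00772% of all genes. None had an unadjusted p below 0.05 either, against 373 of all 12961 genes, and for 1 member, the dim Tnfsf10, the groups did not overlap, against 4.88% of all genes. The differences ran between -0.24 and 0.24, with standard errors over the members in this comparison between 0.06 and 0.35. Passing the adjusted test takes a difference of several standard errors, so small changes could not be resolved. FA replicate 1 had a lower signal range than the other arrays, with a 95th percentile of the raw log2 signal of 7.77 against 8.53 to 9.57 on the other 14, and leaving it out also gave 0 members.

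With LPS present, 1 of 32 members passed in the fit with group alone, against 0.687% of all genes (0.378% higher). For 3 members (Fas, Tnf and Tnfsf14) the groups did not overlap, against 4.48%. With the experiment as a block, which pairs the arrays of an experiment, 2 members passed, Fas and Cd40. More of all genes passed with that block too, as given in the last section. The member that passed with group alone was Fas, which was higher in FA+LPS than in LPS by 0.61 ± 0.10 (1.53-fold, limma adjusted p = 0.0123, n = 4 each). The 4 FA+LPS arrays did not overlap the 4 LPS arrays, the difference was 0.84, 0.51 and 0.59 on slides 1, 2 and 3, and it was 0.84, 0.90, 0.59 and 0.12 in experiments 1 to 4. With median scaling it was 0.67 and did not pass (adjusted p = 1.00), where 6 genes in all passed. The other 3 Fas probes gave 0.27, 0.06 and 0.00 and did not pass.

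For Cd40 the difference of FA+LPS against LPS was -1.12 ± 0.24, a 2.18-fold lower mean in FA+LPS, and its limma adjusted p of 0.05004 lay just above the threshold. The groups overlapped, since FA+LPS replicate 4, at 9.87, exceeded LPS replicate 2, at 9.79. Within experiments 1 to 4 the difference was -1.09, -1.23, -1.14 and -1.03, and with the experiment as a block it passed (adjusted p = 0.00239). It also passed in the authors' value table (0.0436) and without FA+LPS replicate 4 (0.00544) or LPS replicate 2 (0.0253), and its adjusted p was 0.723 with median scaling, where the value was -1.14. The other Cd40 probes gave -1.28, -0.86 and -0.33 with adjusted p-values of 0.0720, 0.305 and 0.173.

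For Tnf, FA+LPS against LPS gave -0.63 ± 0.20 and did not pass (limma adjusted p = 0.191), although the groups did not overlap. The difference in experiments 1 to 4 was -0.55, -0.52, -0.35 and -1.11, and it did not pass with the experiment as a block (adjusted p = 0.0564). Tnfsf14 was at 0.33 ± 0.08 (adjusted p = 0.0963), Tnfsf13b at 0.31 ± 0.11 (0.257), Lta at -0.47 ± 0.17 (0.316) and Tnfrsf21 at 0.40 ± 0.19 (0.522). Of the 32 members, 6 had an unadjusted p below 0.05, against 1270 of all genes.

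**Figure D4:**
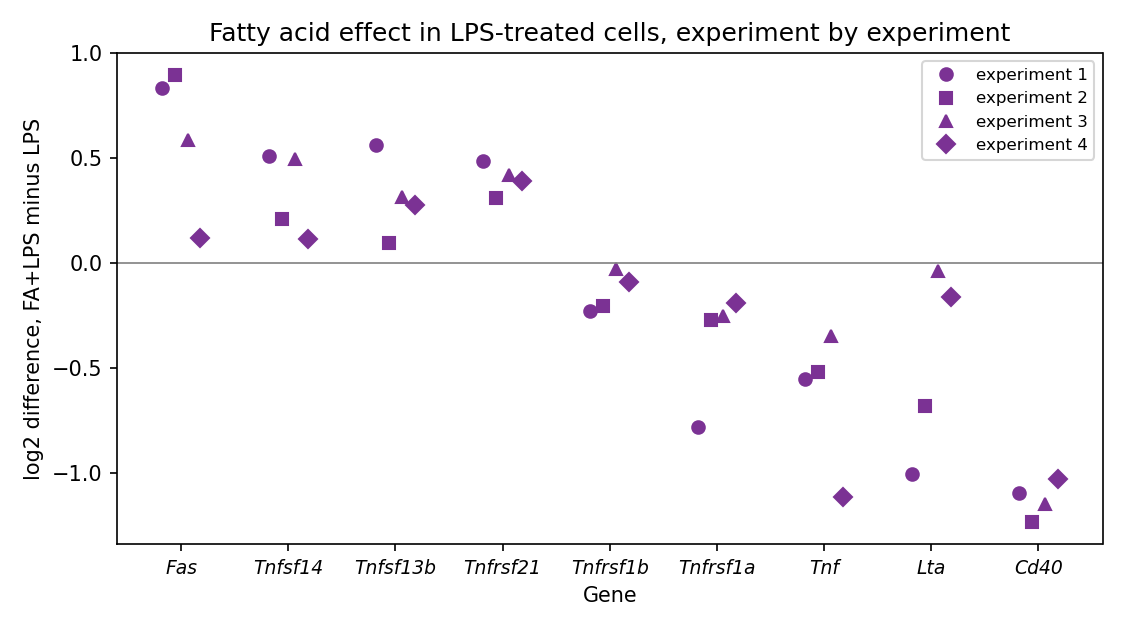
Log2 difference of FA+LPS minus LPS (y axis) within each of the 4 experiments (symbols) for 9 members (x axis). Cd40 lies between -1.23 and -1.03 in all 4 experiments, Fas is above 0 in all 4 but at 0.12 in experiment 4, and Lta is at -0.04 in experiment 3.

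The difference between both fatty acid effects was tested directly as an interaction, the effect with LPS minus that without it. Limma called 0 of 32 members, against 0.0463% of all genes, and 4 had an unadjusted p below 0.05, against 630 of all genes. In the fit with group alone Fas came nearest at 0.71 ± 0.15 (adjusted p = 0.228), and it passed without FA+LPS replicate 4 (0.80, adjusted p = 0.0370). Cd40 was at -1.06 ± 0.35 (adjusted p = 0.727), Tnf at -0.83 ± 0.29 (0.777) and Tnfsf14 at 0.32 ± 0.12 (0.877). That fit ignores the pairing of arrays within experiments. With the experiment as a block 0 members passed. Over the 20 alternatives described below, the lowest limma adjusted p was 0.0695 for Cd40, 0.261 for Tnf and 0.534 for Tnfsf14. The larger LPS difference of Cd40 and Tnf in unloaded cells, and of Fas in loaded cells, did not pass this interaction test.

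A list of 34 genes that act next to TNF receptors, such as adaptors, kinases, caspase regulators and the sheddase of TNF, was counted beside the members. The list was written with earlier results of these data known, so its counts are descriptive and no independent support. Of its 32 genes tested, 14 were higher and 1 lower in FA+LPS against FA, with a median of 0.28, and 16 were higher and 1 lower in LPS against Unstim, with a median of 0.29. Over all genes 8.4% were higher and 11.4% lower in the first comparison (median -0.01), and 8.99% and 13.3% in the second (median -0.02). With median scaling 10 and 8 were higher in these comparisons and 0 lower. The 4 largest differences were those of Traf1, a TRAF adaptor, Mlkl, the effector of necroptosis, and Tnip1 and Tnfaip3, whose products restrain NF-kappaB signalling. Traf1 rose by 3.03 ± 0.12 in loaded cells (limma adjusted p = 3.84e-10) and 3.30 ± 0.13 in unloaded cells (adjusted p = 3.97e-10). Mlkl rose by 2.40 ± 0.28 (1.69e-05) and 3.10 ± 0.30 (2.71e-06), Tnip1 by 2.10 ± 0.18 (6.59e-07) and 1.91 ± 0.19 (3.64e-06), and Tnfaip3, which encodes A20, by 1.58 ± 0.15 (2.10e-06) and 1.57 ± 0.16 (4.69e-06). Otulin, a deubiquitinase of linear chains, was the lower gene in both, at -0.48 and -0.37. Adam17, the sheddase that releases TNF, was higher in loaded cells, at 0.58 (adjusted p = 0.00557), and did not pass in unloaded cells. For fatty acid, the fit with group alone called 0 of 32 genes of the list in FA against Unstim, in FA+LPS against LPS and in the interaction. In these comparisons 0, 4 and 2 had an unadjusted p below 0.05. With the experiment as a block 1 of the 32 was higher in FA+LPS than in LPS, and with slide as a block 1 was higher as well.

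**Figure D5:**
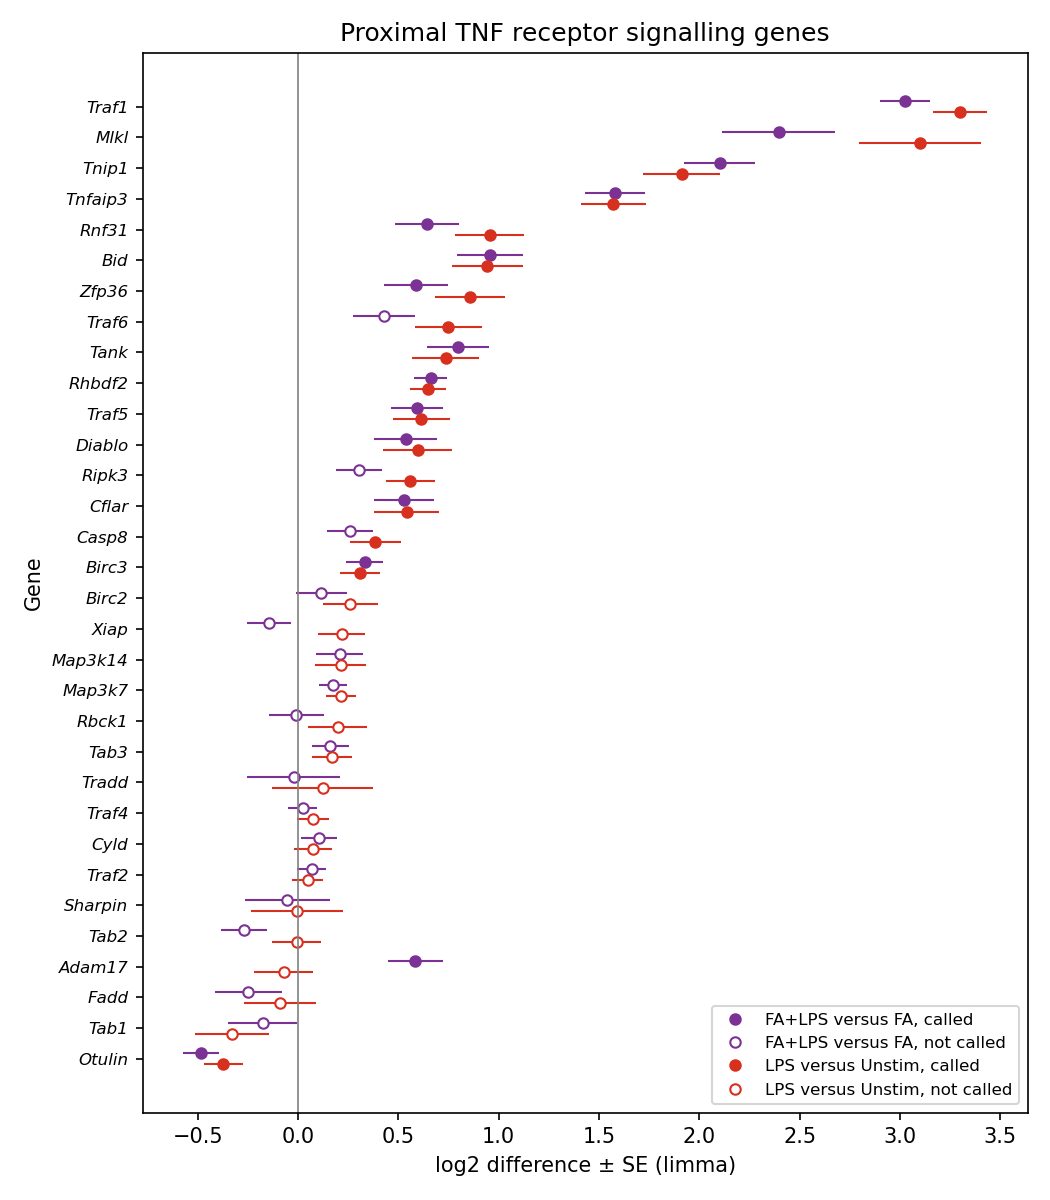
Log2 difference ± SE (x axis, limma) for the 32 tested genes of the list (rows), with FA+LPS against FA drawn above LPS against Unstim for each gene and filled points for genes that passed the test. Traf1, Mlkl, Tnip1 and Tnfaip3 lie above 1.5 in both comparisons and Otulin is the filled point below 0.

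The identity of the cells was checked with markers. Of the 8 macrophage markers with a probe, Adgre1, Csf1r, Itgam, Lyz2, Cd14 and Mertk were above background on all 15 arrays. Fcgr1 was above it on 11 and Cd163 on 4. In the lists of other cells, Il7r, Cd22, S100a8 and Dcn were also above background on all 15. Every marker with a probe in any list was above it on at least 1 array, so that count does not tell cell types apart. With LPS, 3 of these 8 were higher and 1 lower in loaded cells, and 3 were higher and 2 lower in unloaded cells. Markers of other cells moved with LPS as well, in most lists through 1 gene. The summed linear signal of 5 of 7 neutrophil markers was 1255 to 2161 in FA+LPS and 836 to 1240 in LPS, against 595 to 676 in FA and 568 to 678 in Unstim, with S100a8 the marker that rose. Ltf, another neutrophil marker, fell by 0.52 in loaded cells and by 0.53 in unloaded cells (limma adjusted p = 0.00231 and 0.00379), and Mpo, Elane and Cxcr2 did not pass. S100a8 was also higher in FA+LPS than in LPS by 1.11 (adjusted p = 0.0186; 0.752 with median scaling), the same contrast in which Fas passed. The sum of 5 of 6 mesothelial and fibroblast markers was 592 to 1003 in FA+LPS and 662 to 906 in LPS, against 360 to 392 in FA and 365 to 386 in Unstim, with Dcn the gene that passed. The sum of 2 of 10 T and NK cell markers was 563 to 990 in FA+LPS and 701 to 1020 in LPS, against 1066 to 2509 in FA and 1436 to 2172 in Unstim. Il7r fell in that list, by 1.28 in loaded and 1.10 in unloaded cells, and Cd2, at -0.12 and -0.11, did not pass. The sum of 4 of 6 B cell markers was 273 to 302 in FA+LPS and 270 to 296 in LPS, against 316 to 324 in FA and 304 to 334 in Unstim, with Cd22 the gene that passed. The sum of 3 of 8 eosinophil and mast cell markers was 197 to 230 in FA+LPS and 213 to 352 in LPS, against 187 to 208 in FA and 189 to 194 in Unstim. In that list Kit was higher in LPS than in Unstim by 1.13 (adjusted p = 0.00808), and FA+LPS against LPS gave -0.88 (adjusted p = 0.165; 0.0421 with the experiment as a block). The sum of 3 of 5 dendritic cell markers was 186 to 197 in FA+LPS and 182 to 198 in LPS, against 188 to 212 in FA and 178 to 190 in Unstim, and none passed. Their part in the results for the TNF superfamily was not tested, and in bulk RNA fewer cells of a type and less RNA per cell cannot be told apart.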

How the data were processed

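The authors deposited log2 signals of 45281 probes on 15 arrays, not normalized between arrays, and a table of normalized log2 values for 25784 of them. The labels state biotin-labelled cRNA. The sources used here do not give the software or any background step before deposit. The base of the logarithm was inferred from the deposited values, 97.6% of which back-transform to whole multiples of the fifth decimal (tolerance 0.05 of it). Signals were back-transformed, corrected with normexp (offset 50), set to log2 and quantile normalized. Probes were named from the platform annotation: 21476 carry 1 symbol, 10 several and 4298 none. Limma 3.58.1 (R 4.3.3) was fitted to the 15 arrays together, group being the sole term (11 residual and 3.20 prior degrees of freedom). The fit was tested on simulated data. No detection p-values were in the table, so the background rule planned for that case was used.

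Per the labels, replicate numbers are experiments, and arrays of an experiment deviated together: r was 0.0440 to 0.805 (median 0.222, 17 of 21 pairs over 0.1), against a median of -0.0745 over 63 pairs from different experiments. The highest were the pairs of LPS with FA+LPS, at 0.560 to 0.805. Deviations were taken from group means, which by itself makes r negative between experiments where it is positive within them. Alternatives were the authors' value table, median scaling, no filter, slide or experiment as a block, and leaving out each array. Named genes are all 33 members, with per-array values for those called and for Tnfrsf1a, Ltbr and Tnfrsf11a. Tnfrsf10b was added because its call changed under the block. The members and lists were chosen with earlier results of these data known. The number of arrays limits the precision.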

Additional observations from a re-analysis of the deposited data

Results flagged for a closer look

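Tnfrsf11b, the osteoprotegerin gene, had 1 FA array apart from the others: FA replicate 4 was at a log2 signal of 5.85, against 6.00 to 6.03 on the other FA arrays. The gap was 0.844 of the group's range, above the critical value of Dixon's test for 4 arrays. The gene was not above background on any FA array. This was the 1 value marked among 96 groups of 4 arrays examined, where chance marks about 5% of groups.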

How the results depend on the processing

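The 85 differences of 17 members were recomputed under 20 alternatives, which gave 1700 values: 1663 kept their direction, where called, and their side of the threshold, 27 lost a call, 10 gained one and 0 reversed. Most of the 85 were not called, and for those a change of sign still counted as kept. Of the 26 called differences, 17 kept the call under every alternative run and 9 lost it under at least 1. With median scaling, LPS against Unstim called 7 members (6 higher and 1 lower, 85.7% higher against 69.2% in the quantile-normalized fit), FA+LPS against FA called 10 (90% higher against 75%), and FA+LPS against LPS called 0. Over all genes median scaling called 927 in LPS against Unstim (60.0% higher, against 2893 and 40.3%), 925 in FA+LPS against FA (75.0% higher, against 2567 and 42.4%) and 6 in FA+LPS against LPS (against 89). The authors' value table called 2 members in FA+LPS against LPS, Cd40 and Fas. The replicate block, which pairs the arrays of an experiment, also called 2 there (344 genes in all) and 14 in FA+LPS against FA; beyond Cd40, Tnfrsf10b and Tnfrsf11a it changed no other call. Leaving out 1 array gave 11 to 13 members in LPS against Unstim, 12 to 14 in FA+LPS against FA, 1 to 2 in FA+LPS against LPS (2 without FA+LPS replicate 4 or LPS replicate 2), 0 to 1 in the interaction (Fas, without FA+LPS replicate 4) and 0 in FA against Unstim. The interaction called 6 genes in all, against 20 with the replicate block and 0 with median scaling. The cause of these shifts was not tested. Signal near background limited 14 of the 33 members.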
